A study of Homo sapiens with 4 samples.

Results

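The caveolae genes described here are 8 genes fixed by name: the caveolins CAV1 and CAV2, the cavins CAVIN1, CAVIN2 and CAVIN3, the neck ATPase EHD2, and the membrane-bending proteins PACSIN2 and PACSIN3. All 8 were found by symbol among the 60721 genes of the count table, and all 8 passed the filter on low counts that left 16137 genes for testing. Polyadenylated RNA was sequenced from HS578T cells, an established human breast carcinoma line grown with insulin. The control cells (SCR) received GFP and a non-targeting RNA, and the siTLN1 cells received GFP and an siRNA against TLN1, each RNA at 1.6 µM with collection after 48 h. Each group had 2 libraries, described as biological replicates, and they are named a and b here after a number in the count table's column names that recurs in both groups. All cells came from a single line, and no untransfected cells were analysed here.

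Caveolae are small flask-shaped pits of the plasma membrane. Caveolins insert into the membrane and oligomerise, cavins form an outer coat around them, EHD2 gathers at the neck and holds the pit at the surface, and PACSIN proteins bend the membrane with their F-BAR domains. The pits flatten when the membrane is stretched, so they are known as a reserve of membrane under mechanical load, and talin-1, the product of TLN1, links integrins to the actin cytoskeleton on which such load acts. CAV1 and its partners are abundant in fibroblasts, endothelium, fat and muscle, and in breast carcinoma lines of mesenchymal type.

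Total counts ranged from 31854322 to 46353297 per library, and the chi-square of replicate counts over genes, divided by its degrees of freedom, was 7.98 in SCR and 10.4 in siTLN1, so replicates were separate libraries beyond sampling noise. The p-values measure only the spread between these libraries, with the variance of each gene moderated over the tested genes. TLN1 was at 868 and 874 CPM (counts scaled to a common library size, the unit of all levels below) in SCR and at 51.9 and 44.8 CPM in siTLN1, a log2 fold change of −4.17 (adjusted p 3.89e-13). The labels call the cells epithelial, but 3 of 9 epithelial markers reached 1 CPM against 7 of 7 mesenchymal markers. The summed epithelial markers lay at 123 to 153 CPM and the mesenchymal ones at 40927 to 48173 CPM, with ranges that overlapped between the groups. Single genes made up most of each sum, KRT18 (mean 118 CPM over all libraries) of the epithelial and FN1 (mean 27295 CPM) of the mesenchymal one. Markers of the other cell types rich in caveolae were near 0: the adipocyte and muscle lists summed to at most 0.0629 and 0.149 CPM, with 2 of 4 genes at 0 counts in each list, and the endothelial list summed to 4.89 to 6.45 CPM.

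The members fell into an abundant set and a sparse set. Since longer transcripts give more counts, levels were compared between genes as CPM per kilobase of annotated exon. In the SCR libraries CAV1 was highest at 395 and 381 CPM per kb, which placed it at rank 54 of the 16137 tested genes. CAVIN1 followed at 274 and 296 CPM per kb (rank 75) and EHD2 at 141 and 163 CPM per kb (rank 172). These 3 genes, a caveolin, the cavin that the coat requires and the neck ATPase, gave 91.4% and 91.5% of the CPM of all 8 members in SCR. They gave 89.1% and 89.7% in siTLN1.

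On full exon length a gap of 6.14-fold separated EHD2 from the next member. In CPM per kb, the SCR mean of PACSIN2 was 24.8 ± 0.306 (SD, n = 2). CAVIN3 stood at 16.6 and 17.9 in the SCR libraries, CAV2 at 16.5 and 15.9, PACSIN3 at 8.44 and 10.8, and CAVIN2 at 5.54 and 5.95. On full exon length, neighbours in this order had separate SCR libraries, although CAVIN3 and CAV2 differed by only 1.06-fold. The place of CAVIN3 depends on the length used, because 35.8% of its exon bases are shared with a gene on the opposite strand and the counting used no strand option. Over its 999 unshared bases CAVIN3 was at 25.9 and 27.8 CPM per kb in SCR, which overlaps PACSIN2 (25.4 and 25.9 over unshared bases) and lies above CAV2. In siTLN1 the mean of CAVIN3 was 13.7 CPM per kb on full length and 21.3 on unshared bases, on either side of CAV2 (16.3). CAVIN3 is therefore given no place relative to PACSIN2 and CAV2, while the means of the other members kept their order under both lengths and in both groups. Both lengths pool the exons of all annotated transcripts of a gene. Levels over single transcripts, where the folds between genes can differ, were not computed.

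**Figure D1:**
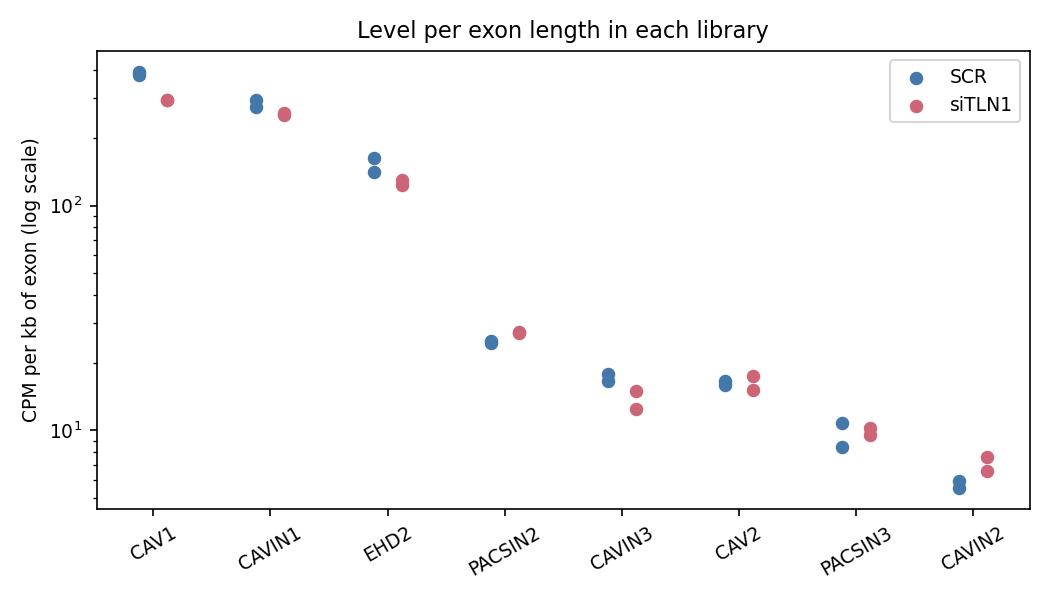
Level of each caveolae gene as CPM per kilobase of exon (log scale), with 1 point per library, SCR in blue and siTLN1 in red, ordered by the SCR mean. CAV1, CAVIN1 and EHD2 lie above 120 CPM per kb in all 4 libraries, and the other 5 genes lie below 28 CPM per kb.

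The main comparison asked whether silencing TLN1 changed these transcripts. A gene was called changed when its adjusted p in edgeR's quasi-likelihood test was under 0.05, with adjustment over all tested genes. CAV1 fell, and it was the only member called. Over all tested genes 6.07% were called, so 1 of 8 members is near the background. Of the 8 log2 fold changes 4 were above 0 and 4 below, with a median of −0.077 against 0.0033 over all tested genes. The libraries of the groups did not overlap for 6 of 8 members, 4 lower and 2 higher in siTLN1, where 48.4% of all tested genes had such separation. RNA was taken in bulk, so fewer cells with a transcript and less of it per cell cannot be told apart.

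CAV1 encodes caveolin-1, the protein without which non-muscle cells form no caveolae. The gene (ENSG00000105974.12) lies on chromosome 7 from 116525001 to 116561184, plus strand, in GRCh38. It had 48506 and 51241 raw counts in SCR and 41667 and 53481 in siTLN1. After scaling, CAV1 was at 1526 and 1471 CPM in SCR and at 1145 and 1138 CPM in siTLN1. Both siTLN1 libraries lay below both SCR libraries, and the gap was far wider than the distance between replicates.

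CAV1 averaged 1499 ± 38.6 CPM (SD, n = 2) in SCR. In siTLN1 it averaged 1141 ± 4.64 CPM (SD, n = 2), or 76.2% of the SCR mean. The log2 fold change was −0.39 (standard error 0.10, 95% interval −0.60 to −0.18), at an adjusted p of 0.0270. The 4 ratios that single siTLN1 libraries make with single SCR libraries ran from −0.42 to −0.36 on the log2 scale, the second tightest range among the members after PACSIN2. Leaving out any 1 library ended the call while the value stayed: the log2 fold change was −0.37 without SCR library a (adjusted p 0.166), −0.42 without SCR library b (0.113), −0.39 without siTLN1 library a (0.165) and −0.38 without siTLN1 library b (0.117).

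CAV2 encodes caveolin-2, which joins caveolin-1 in hetero-oligomers. Its gene (ENSG00000105971.15) lies just upstream of CAV1 on the same strand, from 116287380 to 116508541 on chromosome 7. CAV2 was at 108 and 105 CPM in SCR and at 114 and 99.7 CPM in siTLN1. The siTLN1 libraries enclosed the SCR libraries, and the log2 fold change was 0.0048 with a 95% interval of −0.20 to 0.21 (adjusted p 0.989). A change of CAV2 as large as CAV1's estimate lies outside this interval.

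The 2 neighbouring genes were compared within each library. Per kilobase, CAV1 exceeded CAV2 by 23.9-fold in each SCR library and by 17.0-fold and 19.4-fold in siTLN1 libraries a and b. These folds depend on the length used. Pooled annotated exons cover 3866 bases for CAV1 and 6578 for CAV2, against 2704 and 3301 in the transcript with the longest coding sequence. The mean log2 ratio differed by −0.39 in siTLN1, and the groups did not overlap. With 2 libraries a group an exact permutation test (two-sided) cannot go below p = 0.333, the value it gave here. In all 7 such ratios between members were formed, and the lowest adjusted p of this exact test was 0.389.

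The start regions of both caveolin genes are shown because the genes sit side by side and CAV1 was called while CAV2 was not. The exact test of their ratio could not establish this contrast, whatever the values, with 2 libraries a group. Capitals mark the GC box GGGCGG or its reverse complement CCGCCC, searched on both strands. RefSeq lists 3 starts for CAV1 and 2 for CAV2, and only the most upstream of each is described. The CAV2 stretch lies inside the gene interval given above, which begins farther upstream. Each sequence is the RefSeq promoter stretch from 100 bases before to 50 bases after the most upstream listed start (GRCh38.p14, plus strand), chr7:116524909-116525058 for CAV1 and chr7:116499638-116499787 for CAV2.
CAV1: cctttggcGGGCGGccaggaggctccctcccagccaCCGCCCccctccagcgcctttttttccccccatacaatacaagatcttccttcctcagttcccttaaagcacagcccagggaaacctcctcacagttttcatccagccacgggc
CAV2: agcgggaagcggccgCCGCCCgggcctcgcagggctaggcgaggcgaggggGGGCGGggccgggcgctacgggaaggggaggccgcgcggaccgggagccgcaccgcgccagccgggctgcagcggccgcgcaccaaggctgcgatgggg

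In the full window of 300 bases the CAV1 promoter held 3 GC boxes at 62.3% GC, and that of CAV2 held 6 at 82.7% GC. The GC box is common, since 44.95% of 35116 RefSeq promoter windows of this length hold it. Neither window held the TATA word TATAAA (11.5% of all windows), the TEAD word CATTCC (14.0%) or CCAAT (34.6%), each searched on both strands. CAVIN2 held 1 CATTCC and no GC box, and EHD2 held 1 GC box and none of the other words. Of the 6 listed starts of PACSIN2, the most upstream had a window with 2 GC boxes, 3 CCAAT and neither other word. CATTCC was held by 4 of the other windows, but those with it at −49, −67 and −92 overlap and hold the same match. CAVIN1, CAVIN3 and PACSIN3 had no entry. These matches describe letters and not sites in use.

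**Figure D2:**
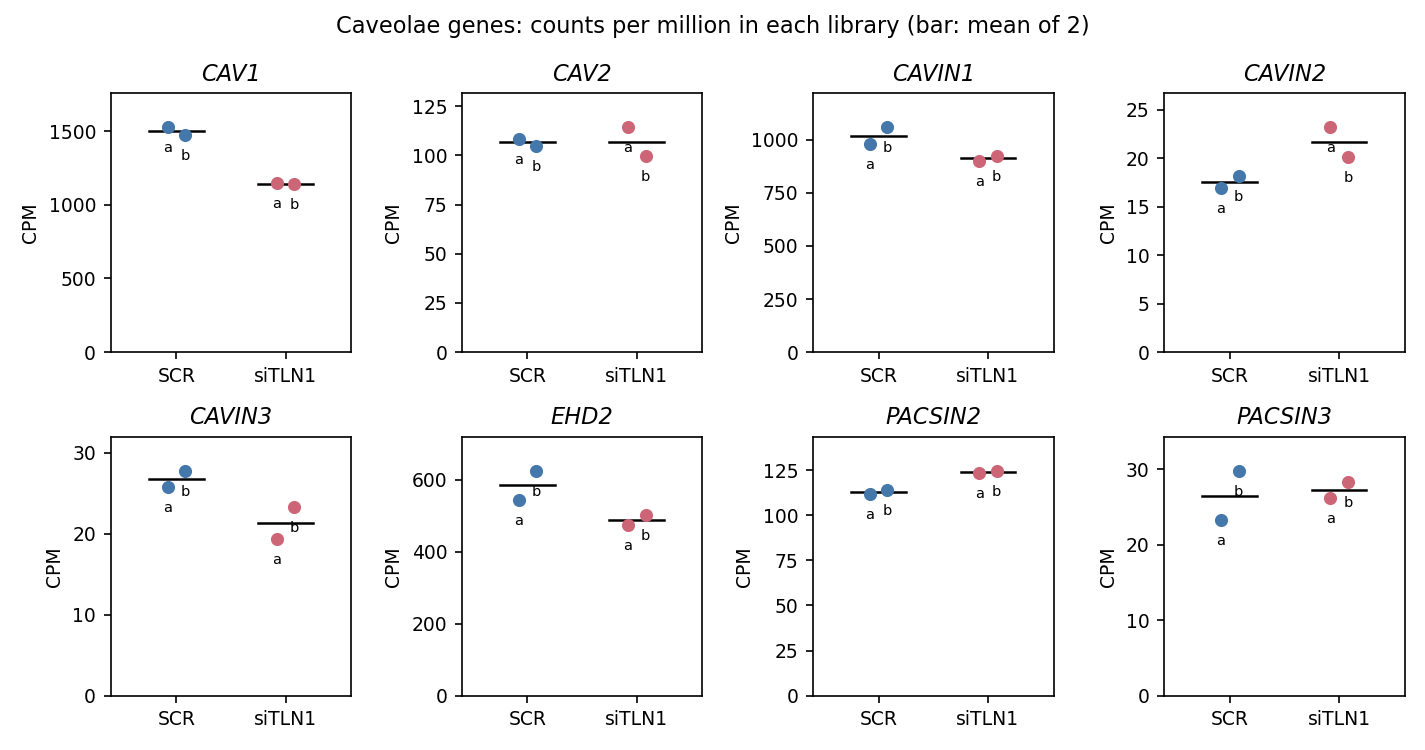
CPM of each caveolae gene in each library, with a and b marking the libraries, bars the mean of 2 libraries, and every axis starting at 0. The siTLN1 points of CAV1 lie at 1145 and 1138 CPM, below SCR points at 1526 and 1471 CPM, while those of CAV2 and PACSIN3 overlap with SCR.

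The cavins did not move in 1 direction. CAVIN1 (ENSG00000177469.13; chromosome 17, 42402449 to 42423256, minus strand) encodes cavin-1, which is required for the coat in all tissues that form caveolae. It was at 979 and 1058 CPM in SCR and at 899 and 925 CPM in siTLN1. All siTLN1 values were lower, yet the log2 fold change of −0.16 (95% interval −0.37 to 0.052) did not pass the test (adjusted p 0.413). It was −0.10 without SCR library b and −0.21 without SCR library a.

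CAVIN2 (ENSG00000168497.5; chromosome 2, 191834310 to 191847088, minus strand) encodes cavin-2, a phosphatidylserine-binding cavin that promotes membrane curvature. It was at 16.9 and 18.2 CPM in SCR and at 23.2 and 20.2 CPM in siTLN1, from 538 to 947 raw counts a library. It was the only cavin whose siTLN1 libraries were both above SCR, with a log2 fold change of 0.30 (95% interval 0.062 to 0.54, unadjusted p 0.0166) that did not hold after adjustment (adjusted p 0.138). Its value ran from 0.20 to 0.40 when 1 library was left out. Exons of the antisense gene CAVIN2-AS1, which had 1 to 4 counts a library, share 7.63% of its exon bases.

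CAVIN3 (ENSG00000170955.10; chromosome 11, 6318946 to 6320532, minus strand) encodes cavin-3, which binds protein kinase C delta and caveolin-1. It was at 25.8 and 27.8 CPM in SCR and at 19.4 and 23.3 CPM in siTLN1. Its log2 fold change was −0.33 (95% interval −0.57 to −0.088, unadjusted p 0.0103) and did not hold after adjustment (adjusted p 0.103). The fall rested more on siTLN1 library a than on b, since the value was −0.20 without siTLN1 library a and −0.47 without siTLN1 library b. A gene on the opposite strand (ENSG00000282556, 3 to 13 counts a library) shares 35.8% of the exon bases of CAVIN3, and the counting used no strand option, so its level rests mainly on the other exon bases.

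Ratios between the cavins were formed within each library, per kilobase of full exon length. CAVIN3 exceeded CAVIN2 by a mean log2 ratio of 1.58 in SCR, with 1.58 in each library, and by log2 ratios of 0.71 and 1.18 in the siTLN1 libraries. CAVIN1 exceeded CAVIN2 by 49.5-fold and 49.8-fold in SCR and by 33.2-fold and 39.3-fold in siTLN1. SCR replicates were thus close to each other, siTLN1 replicates were spread more widely, and both siTLN1 values were lower for these ratios, which share CAVIN2. CAVIN1 exceeded CAVIN3 by 16.5-fold and 16.6-fold in SCR and by 20.3-fold and 17.3-fold in siTLN1, where both values were higher. The log2 differences were −0.64 for CAVIN3 over CAVIN2, −0.46 for CAVIN1 over CAVIN2 and 0.18 for CAVIN1 over CAVIN3. Each had an exact permutation p of 0.333, the smallest the design allows, so this test could not call any difference.

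CAV1 and CAVIN1, the 2 required coat genes, were also set against each other. CAV1 exceeded CAVIN1 by 1.44-fold and 1.28-fold per kilobase in SCR and by 1.18-fold and 1.14-fold in siTLN1. The siTLN1 ratios were both below the SCR ratios, by −0.23 on the log2 scale (exact permutation p = 0.333). The SCR replicates themselves lay at 0.53 and 0.36 on that scale.

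EHD2 (ENSG00000024422.12; chromosome 19, 47713422 to 47743134, plus strand) encodes the dynamin-related ATPase at the caveolar neck. It was at 544 and 625 CPM in SCR and at 473 and 502 CPM in siTLN1. Both siTLN1 libraries were lower, with a log2 fold change of −0.26 (95% interval −0.48 to −0.047, unadjusted p 0.0199) and an adjusted p of 0.151, so the change was not called. The coefficient of variation of the SCR replicates was 9.83%, and leaving out SCR library b brought the log2 fold change to −0.16. Per kilobase, the ratio of EHD2 to CAVIN1 was 0.516 and 0.548 in SCR and 0.489 and 0.504 in siTLN1, a log2 difference of −0.10 with no overlap (exact permutation p = 0.333).

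The PACSIN genes, also named syndapins, encode F-BAR proteins, and PACSIN2 is known to shape caveolae in many cell types while PACSIN3 is best known from muscle. PACSIN2 (ENSG00000100266.19; chromosome 22, 42835412 to 43015149, minus strand) was at 112 and 114 CPM in SCR and at 123 and 125 CPM in siTLN1. Its replicates were close, with coefficients of variation of 1.24% in SCR and 0.665% in siTLN1, and its groups did not overlap. The log2 fold change was small at 0.14 (95% interval −0.055 to 0.33, adjusted p 0.448) and was not called. ARFGAP3, on the same strand, shares 3.40% of the exon bases of PACSIN2.

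PACSIN3 (ENSG00000165912.16; chromosome 11, 47177522 to 47186443, minus strand) was at 23.2 and 29.8 CPM in SCR and at 26.2 and 28.3 CPM in siTLN1. The SCR libraries enclosed the siTLN1 libraries, and the coefficient of variation in SCR, 17.5%, was the highest of the 8 genes. Its log2 fold change was 0.037 (95% interval −0.22 to 0.29, adjusted p 0.914). PACSIN2 exceeded PACSIN3 per kilobase by 2.91-fold and 2.31-fold in SCR and by 2.85-fold and 2.66-fold in siTLN1, with overlapping groups (exact permutation p = 1).

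**Figure D3:**
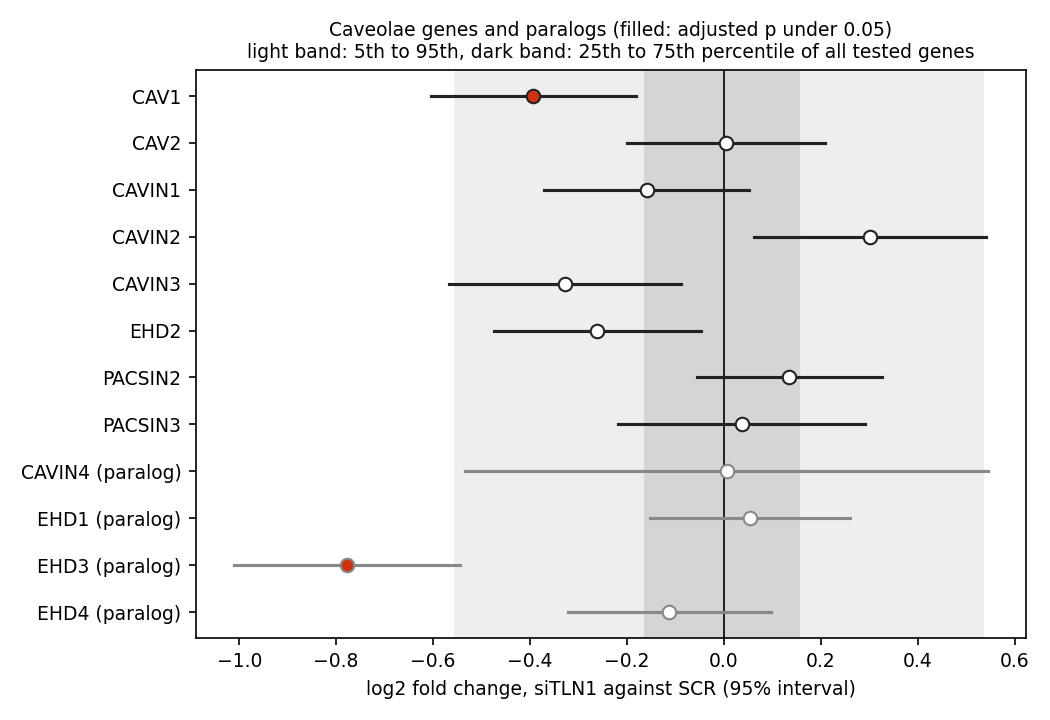
Log2 fold change of siTLN1 against SCR with its 95% interval for the 8 caveolae genes and their 4 tested paralogs, filled where the adjusted p is under 0.05. Bands give the percentiles of all 16137 tested genes; CAV1 (−0.39) and the paralog EHD3 (−0.78) are the filled points, and EHD3 alone lies beyond the light band, whose lower edge is −0.56.

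The paralogs give the family context. The muscle caveolin CAV3 had 1 to 3 raw counts a library and the neuronal PACSIN1 had 0 to 2, too few to test. CAVIN4, the muscle cavin, was at 1.32 and 1.29 CPM in SCR and at 1.46 and 1.19 CPM in siTLN1, with a log2 fold change of 0.0057 (95% interval −0.53 to 0.54). Per kilobase, CAVIN4 was at 0.422 CPM per kb in SCR, against 5.75 CPM per kb for CAVIN2, the lowest member.

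Among the other EHD genes, whose ATPases act in endocytic recycling, EHD3 changed. EHD3 was at 34.9 and 37.1 CPM in SCR and at 19.1 and 22.8 CPM in siTLN1, or 58.2% of the SCR mean. The log2 fold change of EHD3 was −0.78 (standard error 0.11, adjusted p 0.000383), and the call held without any 1 library. EHD1 (0.054, adjusted p 0.830) and EHD4 (−0.11, adjusted p 0.596) did not pass. Per kilobase, EHD2 at 152 ± 14.9 CPM per kb (SD, n = 2) in SCR was by far the most abundant EHD transcript, against 15.6 ± 1.33 for EHD1, 7.46 ± 0.320 for EHD3 and 4.95 ± 0.157 for EHD4.

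The 7-base word GACAACA was looked for in the members because an earlier analysis of these data had pointed to it. Of 940 tested genes with the word in the 3′ UTR, 16.8% were called lower, against 3.49% of 11020 genes without it (TLN1 left out, 3′ UTR of at least 100 bases), a difference given here as a description. Because the word was picked from these same data, the difference is no independent support for it. The groups were not matched for 3′ UTR length. None of the 58 annotated transcripts of the 8 members held the word in any region, CAV1 included. By the 3′ UTR alone, 7.86% of the 11961 genes with a 3′ UTR of at least 100 bases hold it. That is a narrower search than the one in the members, and CAVIN3, with a 3′ UTR of 19 bases, is outside that base. TLN1 and EHD3 hold it in coding sequence, and their sites are shown with the word in capitals, in GENCODE 29 transcripts on GRCh38, at chr9:35706026-35706054 (minus strand) for TLN1, and at chr2:31234776-31234804 and chr2:31261595-31261623 (plus strand) for EHD3.
TLN1: gtagaggacctGACAACAaccctcaacga
EHD3 first site: atgccgacttcGACAACAagcccatggtt
EHD3 second site: tgttcgggaagGACAACAagaagaaggag
EHD1 holds 1 copy in coding sequence and EHD4 holds 1 there and 1 in the 3′ UTR, and neither passed the test. The part of this word in any of these values was not tested.

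Other genes of caveola biology were described from lists written from general knowledge. The list of paralogs and assembly factors had 11 of 13 genes tested, with a median log2 fold change of −0.11. EHD3, described above, was the gene of this list that fell. FLNA, the filamin that ties caveolin-1 to actin, was at 4261 and 4420 CPM in SCR and at 4503 and 3902 CPM in siTLN1, with overlapping groups (adjusted p 0.884).

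Receptors, channels and signalling proteins reported in caveolae had 16 of 19 genes tested, with 1 higher, 0 lower and a median log2 fold change of 0.14, so 6.25% were called against 6.07% of all tested genes. The called gene was ADCY6, an adenylyl cyclase, at 29.9 and 29.3 CPM in SCR and at 43.0 and 39.9 CPM in siTLN1 (log2 fold change 0.49, adjusted p 0.00687), which did not hold without siTLN1 library a (0.44, adjusted p 0.124). INSR, CD36 and NOS3 had too few counts to test. Cholesterol is a main lipid of caveolae, and of 14 tested genes of cholesterol uptake, transport and efflux 1 rose and 0 fell (7.14% called). That gene was NCEH1, a cholesteryl ester hydrolase, at 198 and 174 CPM in SCR and at 292 and 252 CPM in siTLN1 (log2 fold change 0.55, adjusted p 0.00410), and its call was lost without siTLN1 library a (0.44, adjusted p 0.0823).

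The clathrin coat, the other main endocytic coat, served as a reference. Of its 30 genes, all tested, 5 fell and 0 rose (16.7% called, against 6.07% of all tested genes), with a median log2 fold change of −0.087. Whether this share differs from that of all genes was not tested. AP2B1, the beta subunit of the AP-2 adaptor, went from 346 and 346 CPM to 177 and 204 CPM (log2 fold change −0.86, adjusted p 4.93e-05). The AP2B1 call held without any 1 library. AP2S1 (−0.54), CLTB (−0.52), HIP1 (−0.48) and ITSN1 (−0.40) were the others called. Those calls were lost without siTLN1 library a for AP2S1 (−0.45, adjusted p 0.0955), CLTB (−0.48, 0.0819) and ITSN1 (−0.35, 0.227). They were lost without SCR library a for HIP1 (−0.37, adjusted p 0.0569) and ITSN1 (−0.37, 0.0510), and without siTLN1 library b for HIP1 (−0.37, 0.154). The other AP-2 and clathrin subunits did not pass: CLTC (−0.26), AP2A2 (−0.20), AP2A1 (−0.095), AP2M1 (−0.061), CLTA (0.14) and CLTCL1 (0.14). Both siTLN1 libraries lay below SCR for CLTC, AP2A2 and AP2A1 and above SCR for CLTCL1, while AP2M1 and CLTA overlapped. The 3′ UTRs of AP2B1 (387 bases), ITSN1 (11561 bases) and HIP1 (4872 bases) hold GACAACA. Those of AP2S1 (289 bases) and CLTB (319 bases), which are shorter, do not. The share among the uncalled genes of this list was not computed. Over genes with a 3′ UTR of at least 100 bases, 158 called lower held it there and 385 called lower did not (TLN1 left out). In coding sequence HIP1 holds 2 copies and AP2S1 holds 1, as does NCEH1, which rose. The share of all genes with a coding copy was not computed.

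Profiles over the 4 libraries were compared with those of the 2 required coat genes, as a description only. The genes with the highest Pearson r with CAV1 over 4 libraries were FAM168A, THSD4 and GFPT1, and for CAVIN1 they were TMEM222, SHROOM1 and NIBAN2, each at an r above 0.95. With only 4 libraries such values are common, since 858 of 10475 genes whose mean reached 5 CPM exceeded an r of 0.95 with CAV1 and 528 did with CAVIN1.

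**Figure D4:**
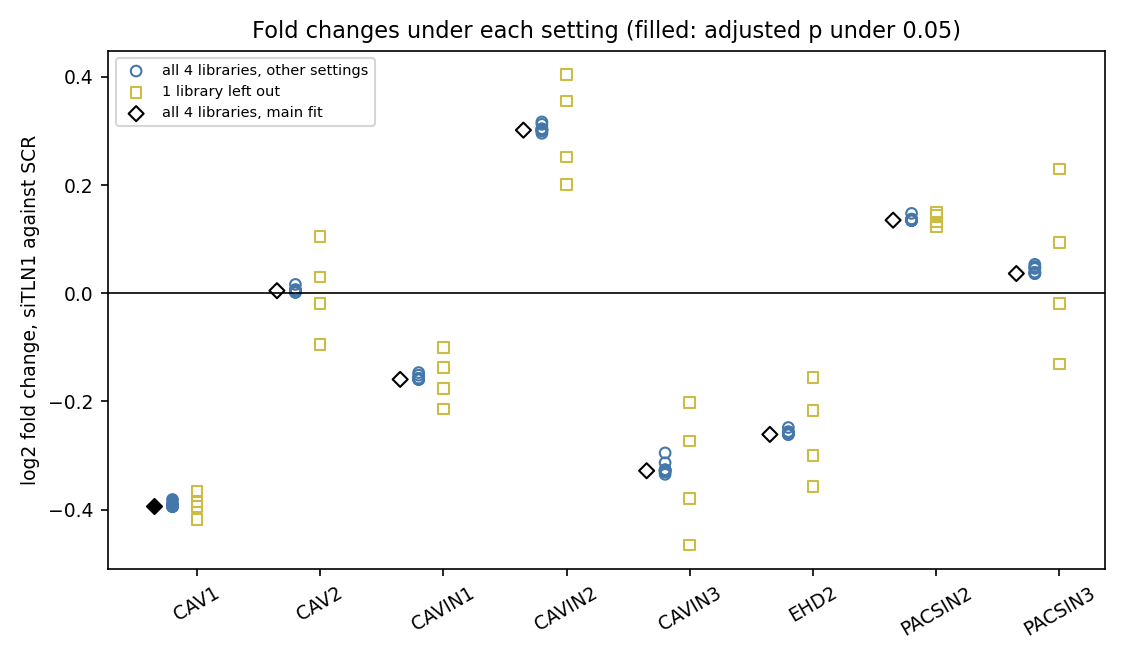
Log2 fold change of each caveolae gene under the main fit (diamonds), 8 other settings with all 4 libraries (circles) and 4 fits with 1 library left out (squares), filled where the adjusted p is under 0.05. CAV1 is filled under all drawn settings with 4 libraries and open in all 4 fits without a library, while CAV2 and PACSIN3 lie on both sides of 0. The fit with a replicate block, described below, called 4 members and is not drawn.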

How the data were processed

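The authors deposited raw read counts; featureCounts 2.0.0 had run on GENCODE 33 (GRCh38) for paired reads, without strand or multi-mapping options, per the file headers; STAR 2.7.9a and edgeR 3.34.1 are named in the submitters' processing notes. Exon lengths, an other unit (bases), are in the same deposited table. The deposited log2 CPM table (16137 genes) equalled edgeR's TMM-scaled log2 CPM in 100% of values, sorted within groups, to 1e-06. Count columns were mapped to groups by name, and no replicate number entered the main fit. The members' deposited log2 CPM match library a to replicate 1 and library b to replicate 2 in both groups. Genes were filtered with filterByExpr (minimum count 10, minimum total 15), scaled by TMM and compared across all 16137 genes with edgeR 4.0.16 (R 4.3.3), glmQLFit (robust) and glmQLFTest, with Benjamini-Hochberg adjustment. The fit was also run on simulated counts that gave all genes the same dispersion. No result here rests on that run. Standard errors were derived as the absolute log2 fold change divided by the square root of the F statistic, and the intervals use them. Alternatives used limma 3.58.1 and DESeq2 1.42.0, which gave no adjusted p for 3755 genes. Transcript words were searched in GENCODE 29, using for each gene the transcript whose coding sequence is longest (all transcripts for members), with Python 3.11.15.

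The members and gene lists were chosen with earlier results of these data known. The named genes are the 8 members, TLN1, 6 paralogs, up to 4 called genes per list and direction by smallest p, and the 3 profiles closest to CAV1 and to CAVIN1. ITSN1, FLNA, AP2M1, AP2A1, AP2A2, CLTA, CLTC, CLTCL1 and the untested INSR, CD36 and NOS3 were added after their values were seen. A gene of the first list is not reported here.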

Additional observations from a re-analysis of the deposited data

How the results depend on the processing

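With all 4 libraries and no block, the 8 alternatives (RLE scaling, total counts only, no filter, a mean of 10 counts, DESeq2, limma-voom, gene-length trend removed, and limma-trend on the authors' log2 CPM) left the direction and side of the threshold of all 64 member values as they were, and 1 member was called each time. CAV1 ranged from −0.39 to −0.38 there, with adjusted p from 0.00135 to 0.0472. The number of genes called ran from 663 with no filter to 1253 with total counts only, against 980, and TLN1 stayed called throughout.

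With 1 library left out, the lone library of an arm is taken to vary like the others. The number of members called was then 0 in all 4 fits, and the number of genes called ran from 324 without siTLN1 library a to 1100 without SCR library a. CAV2 ran from −0.095 (without siTLN1 library a) to 0.10, and PACSIN3 from −0.13 (without SCR library a) to 0.23, so both changed sign. CAV2 was −0.019 without SCR library b and PACSIN3 −0.019 without siTLN1 library b. The paralogs and called list genes were refitted likewise, a choice made after seeing the data: EHD1 ran from −0.031 (without SCR library a) to 0.14, with −0.010 without siTLN1 library b, and CAVIN4 from −0.13 (without siTLN1 library a) to 0.16, with −0.0094 without SCR library b and −0.0063 with limma-voom. Fewer samples enter the fits without a library.

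The labels give both groups the replicate numbers 1 and 2, and the count table's column names carry a number that recurs in both groups. In both groups the deposited log2 CPM of the members match library a to replicate 1 and library b to replicate 2. Both numbers therefore give the same pairs, but nothing in the sources used here ties these pairs to a shared preparation. Differences between replicates correlated between the groups at 0.19 across genes in these pairs, and at 0.54 at 5 CPM or more, and 2 pairs are too few to decide. With the replicate block (limma-trend on the deposited log2 CPM), 3650 genes were called (22.6%), against 951 by the same fit without the block; they included all 980 of edgeR's test, and 4 members: CAV1 (−0.39), CAVIN3 (−0.33), EHD2 (−0.26) and CAVIN2 (0.30).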

Other observations

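The genes around the caveolin pair on chromosome 7 were examined after the values of CAV1 had been seen. Within 500000 bases of CAV2 and CAV1, 4 further protein-coding genes were tested: TES, which encodes a LIM-domain adhesion protein, MET, the receptor of hepatocyte growth factor, CAPZA2, a subunit of actin capping protein, and ST7. CAV1 was the only called gene of this stretch. The log2 fold changes were 0.11 for TES (adjusted p 0.592), −0.088 for MET (0.736), −0.062 for CAPZA2 (0.785) and 0.11 for ST7 (0.607) by edgeR's quasi-likelihood test. MET, the most abundant of the 4, was at 442 CPM on average in SCR and at 416 CPM in siTLN1, with overlapping libraries.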
